A study of Homo sapiens with 3 samples.

Results

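The genes described are those of WNT ligands, Frizzled receptors, their co-receptors and antagonists, and the β-catenin machinery behind them, as counted by RNA-seq in DU145 cells, which come from a human prostate cancer and need no androgen to grow. They were chosen by name among the protein-coding genes of the count tables: the WNT, FZD, DKK1 to DKK4, SFRP1 to SFRP5 and TCF7 families, together with LRP5, LRP6, AXIN1, AXIN2, APC, CTNNB1, LEF1, RNF43 and ZNRF3. The rule found 49 of the 58735 genes listed. Another name that met it, TCF7L1-IT1, is not protein coding and was left out, and the gene once called SFRP3 is listed as FRZB and so was not taken. There are 3 libraries: 1 control and 2 labelled PD-L1 knockdown, with shRNA 1 and shRNA 2 according to their labels. For the knockdown lines in general, the methods describe the empty lentiviral vector pLKO.1 as control and selection of infected cells with puromycin. For sequencing, the methods name the control only as DU145 cells, so whether it carried the vector and was selected is not stated there. The title of the control sample adds the words Knockdown and Control to the cell line and names no vector. The methods list the sequence of 1 hairpin only, so the target of the other is not known here. The control has no replicate, and nothing states that separate cultures lie behind each library. The p-values therefore rest on the spread between the 2 libraries labelled knockdown, which may be technical, and the fit shared that spread over all 19849 genes tested, giving no weight to the spread of a single gene. The study used these libraries to ask which genes respond inside the cell when PD-L1 is reduced. Where 3 values follow each other, they are those of the control, of the library labelled PD-L1 knockdown 1 and of the library labelled PD-L1 knockdown 2, in that order.

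Total counts per library were 14733088, 14738298 and 15786457. A gene without counts could still have been present at up to 0.204, 0.204 or 0.190 CPM (counts scaled to the total of the library), which is the level of 3 counts. CD274, which encodes PD-L1, gave 204, 213 and 224 counts (log2 fold change 0.05, standard error (SE) 0.20, adjusted p = 0.947 by edgeR's quasi-likelihood test). The targeted RNA thus did not follow the labels, and each direction given rests on those labels. The paper checked PD-L1 protein in its stable knockdown lines by Western blot, a level that RNA counts do not measure. Sources also conflict on the medium (DMEM or EMEM), on the cell line (the series text names BCPAP, a thyroid cancer line) and on the control, whose count column is headed by RBM45. RBM45 itself gave 150, 160 and 152 counts (log2 fold change 0.01, SE 0.23, adjusted p = 0.990, edgeR). Of the prostate epithelial markers, KRT8 gave 16068, 17914 and 19056 counts and KRT18 gave 7784, 8668 and 8200, while KRT5, KLK2, KLK3, TMPRSS2, FOLH1 and HOXB13 were at 0 in all libraries. The 8 thyroid markers summed to 2612, 2812 and 3367 counts, nearly all from NKX2-1 and FOXE1. The 6 immune and stromal markers summed to 163, 266 and 317 counts, and CD3E was at 0. Among them CD79A, a B-cell gene, gave 60, 157 and 163 counts (adjusted p = 0.000698, edgeR). The paper also reports CD79A as higher in its knockdown cells by RT-PCR. COL1A1 gave 101, 98 and 149 counts, PTPRC gave 0, 3 and 1, and CD68 gave 0, 2 and 1. The part of these markers in the results on WNT genes was not tested.

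WNT proteins are secreted, lipid-modified ligands that bind Frizzled receptors together with LRP5 or LRP6. Without a ligand, a destruction complex built on AXIN and APC marks β-catenin, the product of CTNNB1, for degradation. When receptors are engaged, β-catenin accumulates, enters the nucleus and acts with TCF/LEF factors on target genes, of which AXIN2 is a widely used readout because it feeds back on the pathway. DKK proteins block LRP5 and LRP6, SFRP proteins bind WNTs outside the cell, and RNF43 and ZNRF3 remove Frizzled receptors from the surface. Other branches work without β-catenin, such as the planar polarity branch to which WNT5A and FZD6 have been linked. In prostate cancer the pathway has been studied in the context of resistance to androgen deprivation.

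The genes of this group differed widely in level in DU145 cells. Of the 49 members, 35 had at least 10 counts summed over the libraries and were tested, 6 had 1 to 9 counts, and 8 had none. Of all 58735 genes listed, which include genes that are not protein coding, 19849 were tested. By FPKM, the deposited count per length and depth that allows levels of different genes to be compared, each role was led by 1 or a few genes: WNT7B among ligands, FZD6 among receptors, LRP5 before LRP6, and DKK1 among secreted antagonists. DKK1 had the highest FPKM of all members, at 57.2, 54.6 and 63.5, above 96.5% of the protein-coding genes detected in the control. CTNNB1 itself stood at 26.0, 26.9 and 26.5 FPKM. The length behind an FPKM is that of all annotated exons of a gene, for CTNNB1 11927 bases where its longest transcript has 4888 and for TCF7 10063 where it has 5340, so levels of different genes compare only roughly. The transcription factors were much lower, with TCF7L2 at 5.75, 4.80 and 4.34 FPKM as the highest of its family. LEF1, the remaining factor of the family, was near the detection limit with 2, 2 and 4 counts.

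**Figure D1:**
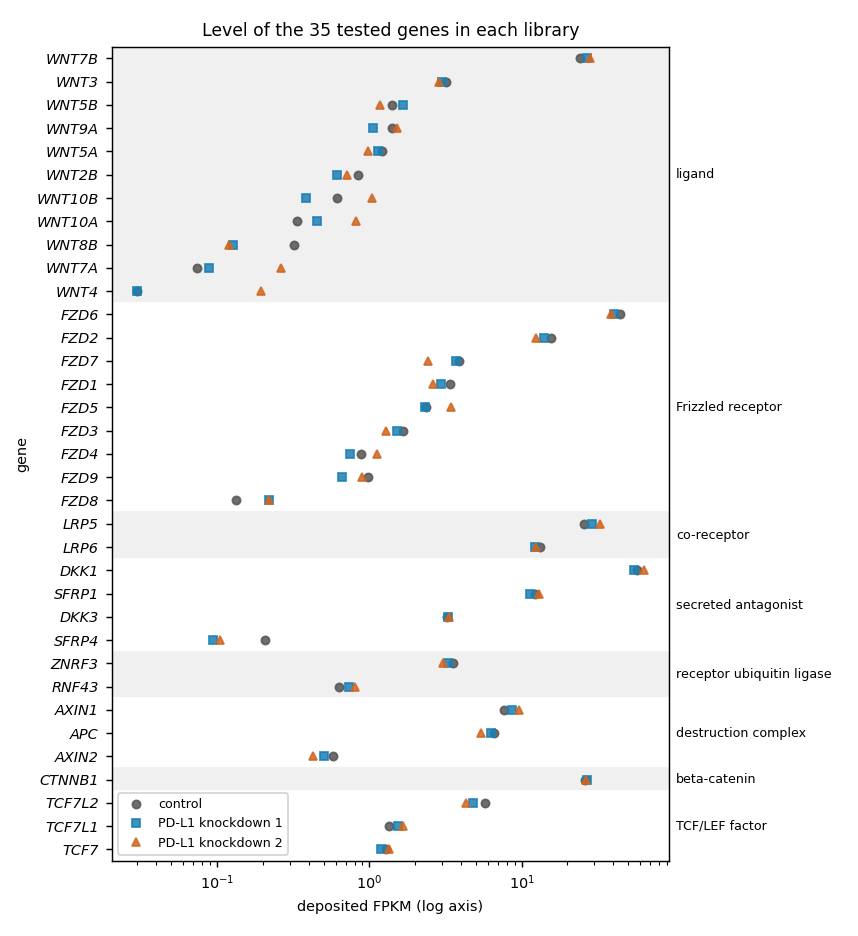
Deposited FPKM (log axis) of the 35 tested genes, grouped by role, with 1 symbol per library. DKK1 and FZD6 lie furthest to the right, and for most genes the symbols of the 3 libraries nearly coincide; the wide gaps belong to genes with few counts, such as WNT4 with 2, 2 and 14 counts.

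No member passed the test between the libraries labelled PD-L1 knockdown and the control. By edgeR's quasi-likelihood test, with p adjusted by Benjamini and Hochberg's method over 19849 genes, 0 of the 35 tested members had an adjusted p under 0.05, where 70 genes, or 0.353% of all genes tested, did. The adjusted p of the members ran from 0.360 to 0.994. At an unadjusted p under 0.05, edgeR gave 2 members, LRP5 and TCF7L2, beside a background of 11.7% of all genes. DESeq2's test on the same counts gave 0 members at that limit. It called only 6 of all genes at an adjusted p under 0.05. No member reached the limits drawn in the study's volcano plot, an unadjusted p under 0.05 with an absolute log2 fold change above 1, which 2.48% of all genes did. The log2 fold change was above 0 in 16 members and below 0 in 19, with a median of -0.02 beside 0.00 for all genes tested. Among the 23 members with a mean of at least 100 counts it lay between -0.34 and 0.28 with standard errors of 0.11 to 0.27. The median size of the log2 fold change there, whatever its sign, was 0.19, beside 0.15 in the 10861 genes with as many counts. Of the tested members, 18 overlap a gene on the opposite strand, and the counting is not stated to use strand. Because these are bulk libraries, a lower level in each cell and a smaller share of cells with the RNA cannot be told apart.

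Since the control is a single library, each library labelled knockdown was also set against it directly, with an exact 95% interval for the ratio of CPM. Such intervals cover counting error only and compare libraries, not conditions. In both libraries the interval lay above 1 for LRP5, AXIN1 and WNT7B, which is 3 of 35 tested members where 10.0% of all genes did so. It lay below 1 in both for FZD6, TCF7L2 and LRP6, again 3 of 35, beside 9.06% of all genes. Both ratios use the same control library, so that their shared side is not a replication.

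**Figure D2:**
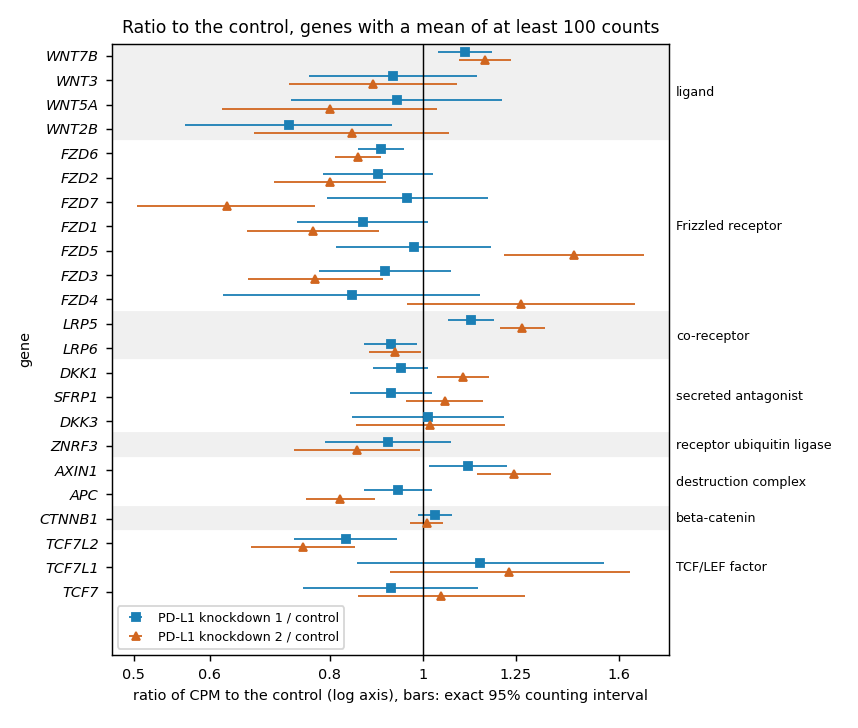
Ratio of CPM to the control (log axis) for the 23 members with a mean of at least 100 counts, by role, with exact 95% counting intervals as bars for the libraries labelled PD-L1 knockdown 1 (squares) and 2 (triangles). LRP5, AXIN1 and WNT7B lie right of 1 with both bars and FZD6, LRP6 and TCF7L2 left of 1, while FZD5 and FZD7 leave 1 only in the library labelled knockdown 2.

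Because several of these genes are linked to transcription by β-catenin and TCF factors, the sequences before their start sites were read from RefSeq (GRCh38.p14), which held a window for 34 of the 49 members. Shown 5′ to 3′ are the 250 bases before the start of DKK1, the most highly expressed member, before a start inside TCF7L2 and the upstream start of that gene, the TCF member with the lowest p, and before LRP5 and AXIN1, which were above the control in both libraries labelled knockdown. Capitals mark a match to CTTTGAA, to CTTTGAT, to CTTTGTT or to CTTTGTA, the core that TCF/LEF factors bind, searched on both strands. The windows are DKK1 at chr10:52314031-52314280, TCF7L2 at chr10:113126383-113126632 and chr10:112949997-112950246, and LRP5 at chr11:68312341-68312590, all on the plus strand, and AXIN1 at chr16:352724-352973 on the minus strand.
DKK1: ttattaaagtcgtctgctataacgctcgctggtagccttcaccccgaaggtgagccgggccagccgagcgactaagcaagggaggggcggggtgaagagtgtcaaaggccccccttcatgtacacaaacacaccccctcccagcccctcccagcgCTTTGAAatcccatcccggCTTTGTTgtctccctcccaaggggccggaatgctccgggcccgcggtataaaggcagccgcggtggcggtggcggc
TCF7L2, internal start: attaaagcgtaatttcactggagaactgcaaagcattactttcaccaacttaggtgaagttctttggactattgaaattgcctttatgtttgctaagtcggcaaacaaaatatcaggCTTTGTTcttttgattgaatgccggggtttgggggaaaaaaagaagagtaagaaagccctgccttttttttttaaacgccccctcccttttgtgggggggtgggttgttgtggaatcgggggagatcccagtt
TCF7L2, upstream start: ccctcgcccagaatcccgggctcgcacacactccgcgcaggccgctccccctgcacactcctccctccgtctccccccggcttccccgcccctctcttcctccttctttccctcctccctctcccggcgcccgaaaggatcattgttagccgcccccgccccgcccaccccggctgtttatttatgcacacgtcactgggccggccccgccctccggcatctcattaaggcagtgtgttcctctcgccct
LRP5: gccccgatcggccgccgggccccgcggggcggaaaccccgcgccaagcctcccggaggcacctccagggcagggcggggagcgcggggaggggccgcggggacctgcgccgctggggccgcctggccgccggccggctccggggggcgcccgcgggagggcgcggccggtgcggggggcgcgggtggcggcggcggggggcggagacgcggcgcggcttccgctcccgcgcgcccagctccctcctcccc
AXIN1: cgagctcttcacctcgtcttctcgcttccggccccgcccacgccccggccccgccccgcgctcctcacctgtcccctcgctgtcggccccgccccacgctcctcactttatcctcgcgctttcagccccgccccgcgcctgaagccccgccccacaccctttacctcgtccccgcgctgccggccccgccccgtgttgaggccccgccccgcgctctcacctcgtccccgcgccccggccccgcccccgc
The DKK1 sequence holds CTTTGAA beginning 95 bases and CTTTGTT beginning 76 bases before the start, and the internal TCF7L2 sequence holds CTTTGTT beginning 133 bases before it. The upstream TCF7L2 start, LRP5 and AXIN1 had no match in these letters. TCF7L2 has 3 windows, not all shown, and of these only the internal window shown held a match. Counting also the 50 bases after each start, 4 of 42 windows of members held a match (9.52%), those of DKK1, TCF7, TCF7L2 and WNT3, beside 13.8% of 35116 windows of all genes. The bases before LRP5 and AXIN1 were 87.2% and 77.6% G and C, those before DKK1 62.8% and those before the upstream and internal starts of TCF7L2 68.0% and 42.4%, beside a median of 58.0% over all windows. A match is a description of the letters and no evidence of binding.

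The ligands of DU145 cells were mainly WNT7B. Of 19 WNT genes, 11 were tested, with 6 log2 fold changes above 0 and 5 below (median 0.01, lowest adjusted p = 0.491, edgeR). WNT7B (ENSG00000188064, chr22:45920362-45977129, minus strand), a ligand of the β-catenin branch known from lung and kidney development, had 1807, 2001 and 2247 counts, or 24.1, 26.8 and 28.2 FPKM. It made up 71.6%, 75.3% and 74.2% of the summed FPKM of all WNT genes. Its ratio to the control was 1.11 (1.04 to 1.18) in the library labelled knockdown 1 and 1.16 (1.09 to 1.24) in the library labelled knockdown 2. The fit over both gave a log2 fold change of 0.19 with a standard error of 0.12 and an adjusted p of 0.572 (edgeR), which did not pass. WNT3, another ligand of the β-catenin branch, followed at 206, 192 and 196 counts and 3.20, 3.0 and 2.86 FPKM, a level several times lower than that of WNT7B. WNT5A, the best known ligand of the branches without β-catenin, had 133, 125 and 114 counts, and its close relative WNT5B had 90, 106 and 80. WNT2B had 157, 114 and 142 counts. It was the only ligand with a mean of at least 100 counts other than WNT7B whose interval left 1 in the library labelled knockdown 1, at a ratio of 0.726 (0.565 to 0.930). In the library labelled knockdown 2 its ratio was 0.844 (0.668 to 1.07), and the log2 fold change over both was -0.34 (SE 0.23, adjusted p = 0.585, edgeR). WNT2B overlaps ST7L on the opposite strand, and WNT5B overlaps FBXL14. Reads from the overlapping parts cannot be told apart unless the counting used the strand, which is not stated. Only the start and end of genes were compared, so how far exons overlap was not tested.

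Ligands with few counts gave the largest fitted fold changes of the whole group, and the highest of them rested on the library labelled knockdown 2. WNT4, needed for development of the kidney and the female reproductive tract, had 2, 2 and 14 counts, a ratio to the control of 1.00 (0.0725 to 13.8) in the library labelled knockdown 1 and of 6.53 (1.5 to 59.2) in the library labelled knockdown 2. WNT7A, a patterning signal of the limb, had 5, 6 and 19 counts, with ratios of 1.20 (0.305 to 4.97) and 3.55 (1.28 to 12.2). WNT10A, which acts in teeth and skin appendages, had 17, 23 and 44 counts, with ratios of 1.35 (0.692 to 2.70) and 2.42 (1.35 to 4.51). For these genes the control and the library labelled knockdown 1 overlapped within counting error, and only the library labelled knockdown 2 stood above the control. WNT10B, a ligand that restrains fat cell formation, went both ways with 24, 15 and 43 counts. WNT8B, known from the developing brain, had 10, 4 and 4 counts, and both its intervals included 1. Fitted log2 fold changes were 1.87 for WNT4 (SE 1.28), 1.24 for WNT7A (0.94), 0.92 for WNT10A (0.52), 0.21 for WNT10B (0.50) and -1.34 for WNT8B (1.03), with adjusted p between 0.491 and 0.913 (edgeR). WNT9A had 83, 62 and 95 counts. WNT2, WNT3A, WNT6, WNT11 and WNT16 had at most 3 counts in any library, and WNT1, WNT8A and WNT9B had 0 in all, so that levels below the detection limit remain possible for each of them.

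**Figure D3:**
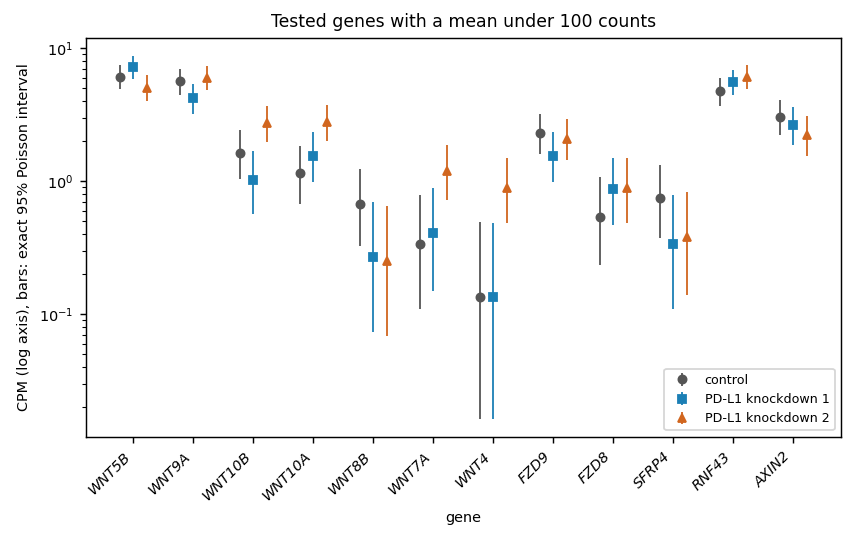
CPM (log axis) of the 12 tested members with a mean under 100 counts in each library, with exact 95% Poisson intervals as bars. The bars of the control and of the library labelled PD-L1 knockdown 1 overlap for every gene, and those of WNT4, WNT7A, WNT10A and WNT10B in the library labelled PD-L1 knockdown 2 sit highest of the 3.

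No Frizzled receptor passed the test, and only FZD6 had intervals below 1 in both libraries labelled knockdown. Of 10 FZD genes 9 were tested, 6 with a log2 fold change below 0 and 3 above (median -0.23, lowest adjusted p = 0.534, edgeR). FZD6, a receptor known for ordering hair and epithelial polarity, was the leading receptor with 2682, 2429 and 2463 counts, 44.4, 40.4 and 38.3 FPKM, and 60.7%, 60.7% and 61.0% of the summed FPKM of the family. Its ratio to the control was 0.905 (0.857 to 0.957) and 0.857 (0.811 to 0.906), and its log2 fold change -0.18 (SE 0.12, adjusted p = 0.572, edgeR). FZD2, a receptor for WNT5A among others, came next with 486, 437 and 417 counts and 15.5, 14.0 and 12.5 FPKM, and its log2 fold change was -0.23 (SE 0.16, adjusted p = 0.606, edgeR). Together these receptors kept the same order in every library, with FZD6 above FZD2 and FZD2 above all others. FZD1 had 352, 305 and 290 counts and FZD3 338, 309 and 280. For both, the library labelled knockdown 2 lay below the control beyond counting error (0.769, 0.656 to 0.901, for FZD1 and 0.773, 0.658 to 0.909, for FZD3). The interval of the library labelled knockdown 1 included 1 for both. With the trends of GC content and transcript length removed, the log2 fold change was -0.0062 for FZD6 and 0.0052 for FZD3. It was -0.24 for FZD1 and -0.47 for FZD2 in that setting.

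FZD7 and FZD5 differed between the libraries labelled knockdown. FZD7, which serves stem cells of several epithelia, had 221, 213 and 148 counts, with a ratio to the control whose interval included 1 in the library labelled knockdown 1 (0.963, 0.794 to 1.17) and lay below 1 in the library labelled knockdown 2 (0.625, 0.504 to 0.773). FZD5, a receptor used in the eye and the intestine, had 236, 231 and 363 counts, with ratios of 0.978 (0.813 to 1.18) and 1.44 (1.22 to 1.7). These are the lowest and the highest ratios of the library labelled knockdown 2 among members with a mean of at least 100 counts. FZD4, the receptor for Norrin in retinal vessels, had 96, 81 and 130 counts, but it overlaps PRSS23, a gene with 18325 counts in all, on the opposite strand. FZD9 had 34, 23 and 33 counts, FZD8 had 8, 13 and 14, and FZD10 had 0 in all libraries. Adjusted p (edgeR) was 0.534 for FZD7 and 0.595 for FZD5.

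Set against each other, the 2 libraries labelled knockdown differed beyond counting error in members of most roles. The library labelled knockdown 2 was above the library labelled knockdown 1 in 11 of the 35 tested members (13.5% of all genes) and below it in 4 (12.8% of all genes). The 11 were WNT4, WNT7A, WNT9A, WNT10A, WNT10B, FZD4, FZD5, LRP5, AXIN1, DKK1 and SFRP1. The 4 were WNT5B, FZD3, FZD7 and APC. The ratio was 1.47 (1.24 to 1.74) for FZD5, 2.68 (1.46 to 5.19) for WNT10B and 0.649 (0.522 to 0.804) for FZD7. With 1 library per label, a difference between shRNAs and one between library preparations cannot be told apart.

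Neither co-receptor passed the test, and their values lay on different sides of the control. LRP5 (ENSG00000162337, chr11:68312609-68449275, plus strand), whose loss or gain alters bone mass, had 2350, 2639 and 3197 counts, or 25.7, 29 and 32.8 FPKM. The order was the same in CPM, at 160, 179 and 203. Its ratio to the control was 1.12 (1.06 to 1.19) and 1.27 (1.20 to 1.34), and its log2 fold change was 0.26 (SE 0.12, adjusted p = 0.360, edgeR), the lowest adjusted p of all members. LRP6, the close homologue that shares its ligands, had 2032, 1883 and 2036 counts, or 13.2, 12.3 and 12.5 FPKM. Its ratio was 0.926 (0.870 to 0.987) and 0.935 (0.879 to 0.995), and its log2 fold change was -0.10 (SE 0.12, adjusted p = 0.797, edgeR). LRP5 thus made up 66.0%, 70.2% and 72.5% of the summed FPKM of the pair. That shift was not tested as such. With the trends of GC content and transcript length removed, an alternative added after the data were seen, both genes lay slightly above 0, LRP5 at a log2 fold change of 0.05 and LRP6 at 0.062.

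DKK1 and SFRP1 were well expressed in all libraries, whereas 4 of the 8 genes for secreted antagonists had no counts. DKK1 (ENSG00000107984, chr10:52314296-52318042, plus strand), which blocks LRP5 and LRP6 and is itself a known target of β-catenin, had 1875, 1779 and 2213 counts and made up 78.6%, 78.8% and 79.5% of the summed FPKM of the DKK and SFRP genes. Its ratio to the control was 0.948 (0.888 to 1.01) in the library labelled knockdown 1 and 1.10 (1.04 to 1.17) in the library labelled knockdown 2, on either side of 1, and its log2 fold change was 0.04 (SE 0.12, adjusted p = 0.934, edgeR). SFRP1, often silenced in carcinomas, had 860, 797 and 971 counts and 12.2, 11.3 and 12.9 FPKM (log2 fold change -0.01, SE 0.14). DKK3, a divergent member of the DKK family, had 243, 246 and 265 counts (log2 fold change 0.03, SE 0.19). SFRP4 had 11, 5 and 6 counts, and it lies opposite EPDR1, which had 6081 counts in all. DKK2, DKK4, SFRP2 and SFRP5 had 0 counts in every library. The ubiquitin ligases that take Frizzled receptors off the membrane were ZNRF3 with 366, 337 and 335 counts and RNF43 with 70, 82 and 96 (adjusted p = 0.748 and 0.735, edgeR). Of the 31-base words of RNF43, 59.2% are shared with other annotated genes, most of them with AC004687.2 (9 counts in all), so its count is uncertain.

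Behind the receptors, the RNA of β-catenin itself differed little among the libraries. CTNNB1 (ENSG00000168036, chr3:41194741-41260096, plus strand) had 4610, 4750 and 4985 counts, which is 313, 322 and 316 CPM. Its ratio to the control was 1.03 (0.989 to 1.07) and 1.01 (0.969 to 1.05), and its log2 fold change 0.03 (SE 0.11, adjusted p = 0.945, edgeR). RNA levels do not report the amount of β-catenin protein, which is set by the destruction complex. Neither scaffold of that complex passed the test, and AXIN1 lay above and APC below the control, a contrast that was no longer seen with the trends of GC content and transcript length removed (log2 fold changes of 0.05 and -0.00055). AXIN1 had 853, 951 and 1137 counts, or 7.67, 8.59 and 9.61 FPKM, with ratios of 1.11 (1.02 to 1.22) and 1.24 (1.14 to 1.36), and the log2 fold change was 0.24 (SE 0.14, adjusted p = 0.491, edgeR). APC had 1218, 1149 and 1071 counts, or 6.59, 6.25 and 5.45 FPKM, with ratios of 0.943 (0.869 to 1.02) and 0.821 (0.755 to 0.892), and the log2 fold change was -0.18 (SE 0.13, adjusted p = 0.629, edgeR). AXIN2, the feedback target, was low, with 45, 39 and 35 counts and under 1 FPKM (0.580, 0.505 and 0.424). Its ratios were 0.866 (0.549 to 1.36) and 0.726 (0.453 to 1.15), too wide to show a difference at this depth, and 24.7% of its 31-base words are shared with other genes.

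Among the TCF/LEF factors TCF7L2 was lower in both libraries labelled knockdown beyond counting error, but did not pass the test. TCF7L2 (ENSG00000148737, chr10:112950250-113167678, plus strand), the factor best known from the intestine and from diabetes genetics, had 575, 478 and 462 counts. The control lay above both other libraries in CPM (39.0 against 32.4 and 29.3). The ratio was 0.831 (0.735 to 0.940) and 0.750 (0.662 to 0.849), and the log2 fold change -0.34 (SE 0.16, adjusted p = 0.377, edgeR), which did not pass. Its share of the summed TCF/LEF FPKM was 68.5%, 63.5% and 58.7%. TCF7L1, mostly a repressor, had 88, 101 and 116 counts, and TCF7 had 191, 177 and 214. Neither ratio of these genes had an interval that left 1, and TCF7 overlaps SKP1, which had 5869 counts in all, on the opposite strand.

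The ratios to the control varied with the base composition of the transcripts, across the transcriptome and among these genes. Over 10859 genes that averaged at least 100 counts, the median log2 ratio per class of GC content ran from -0.16 to 0.16 in the library labelled knockdown 1 and from -0.28 to 0.33 in the library labelled knockdown 2, between classes with a median of 35.5% and 65.5% GC. In the 23 members with as many counts, Pearson's r between log2 ratio and GC was 0.55 and 0.40 (Spearman's rho 0.40 and 0.38), and over all genes it was 0.48 and 0.65 (0.53 and 0.69). Of the 12 members with at most 50% GC, 1 lay above the control in the library labelled knockdown 1 and 4 in the library labelled knockdown 2, and of the 11 with more GC, 5 and 7 did. Over all genes with as many counts, 1920 and 1585 of 6166 with at most 50% GC lay above the control, and 3488 and 3861 of 4693 with more. The median log2 ratio of the GC-rich members was -0.05 and 0.06, beside 0.11 and 0.19 over all such genes. These are descriptions across genes, which share the libraries and the control and are not replicates. LRP5 (62.8% GC), AXIN1 (63.8%) and WNT7B (63.0%), above the control in both libraries, lie at the GC-rich end. FZD6 (38.4%) and LRP6 (40.2%), below it in both, lie at the other, with APC (39.6%), whose interval left 1 only in the library labelled knockdown 2. TCF7L2, also below in both, has 45.8%. CTNNB1 (43.5%) and DKK1 (43.5%) were not below in both, with ratios of 1.03 and 1.01 and of 0.948 and 1.10. With these trends and that of transcript length removed, the log2 fold change moved from 0.26 to 0.05 for LRP5 and from 0.24 to 0.05 for AXIN1. It moved from 0.19 to -0.026 for WNT7B, from -0.18 to -0.0062 for FZD6 and from -0.10 to 0.062 for LRP6. Genes away from the trend stayed further from 0, on either side. TCF7L2 (45.8% GC) was at -0.26 after -0.34, FZD7 (52.8%) at -0.38 after -0.33 and FZD2 (64.9%) at -0.47 after -0.23. FZD1 was at -0.24 after -0.29 and WNT2B at -0.24 after -0.34. FZD5 stayed above, at 0.30 after 0.28. The lowest adjusted p of the members was then that of FZD2, at 0.382 (edgeR), where 25 of all genes had an adjusted p under 0.05. Why the libraries differ with GC content was not tested.

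**Figure D4:**
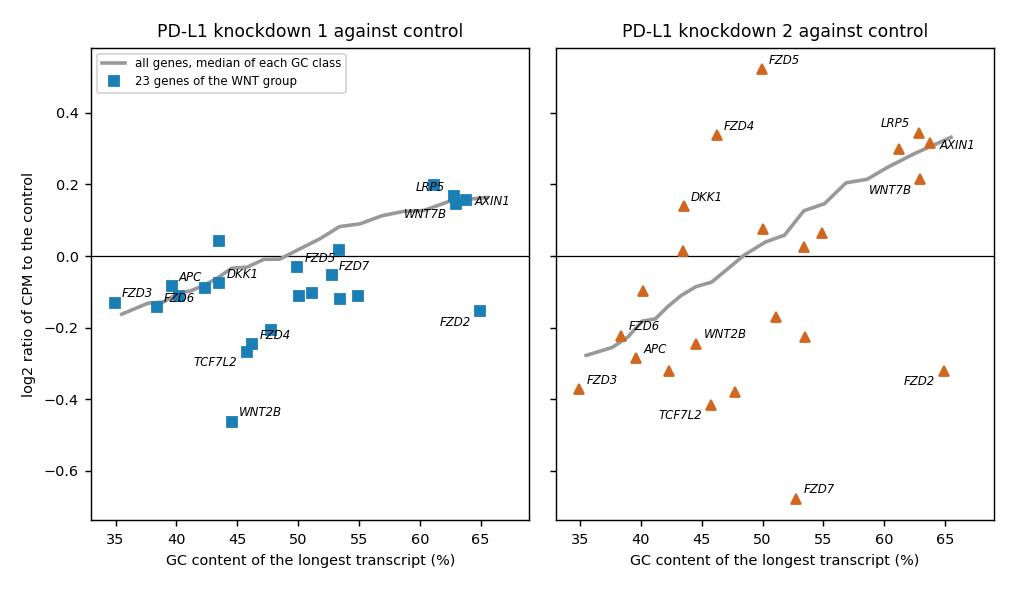
Log2 ratio of CPM to the control against the GC content of the longest transcript (%) for the 23 members with a mean of at least 100 counts, in the libraries labelled PD-L1 knockdown 1 (left) and 2 (right). The grey line is the median of all genes in 20 GC classes and rises from left to right in both panels. LRP5, AXIN1 and WNT7B lie near it, and FZD2 and FZD7 lie beneath it.

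The other genes of the pathway, 52 in 5 lists, were compared in the same fit. Of 46 tested, 0 passed an adjusted p under 0.05 with edgeR or with DESeq2, and 3 had an unadjusted p under 0.05 with edgeR, 2 higher and 1 lower, where 11.7% of all genes had. DVL1, which relays the signal from Frizzled, had 1510, 1738 and 2237 counts (log2 fold change 0.35, SE 0.12, adjusted p = 0.217, edgeR). BCL9L, a co-activator that binds β-catenin, had 4712, 5361 and 7063 counts (0.35, SE 0.11, adjusted p = 0.162, edgeR). RSPO3, a secreted enhancer that acts by way of LGR receptors on ZNRF3 and RNF43, had 254, 224 and 175 counts (-0.39, SE 0.20, adjusted p = 0.422, edgeR). These were the largest differences among listed genes that averaged at least 100 counts. They come from the fit in which the trends of GC content and transcript length were not removed. The median log2 fold change was -0.09 for secretion and extracellular regulators, -0.11 for other receptors, 0.04 for cytoplasmic components, 0.11 for nuclear co-factors and -0.08 for target genes, beside 0.00 for all genes tested. Among the 8 targets tested, of 10 listed, none had an unadjusted p under 0.05, and CCND1 (7130, 6828 and 7222 counts) and MYC (1540, 1623 and 1913) were the most counted with CD44. LGR5, another target, was at 0 in all libraries.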

How the data were processed

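RNA-seq of 3 DU145 libraries (1 control and 2 labelled PD-L1 knockdown) was grouped by the labels of the deposited samples. For each library the authors deposited whole-number read counts on 58735 genes, without normalization, and FPKM values. The submitters' processing notes name Bowtie2 2.0.6, TopHat2 2.0.9, Cufflinks 2.1.1 and Cuffdiff 2.1.1, without their roles, and whether the counting used the strand is not given in the sources used here. Each deposited FPKM was checked to be the count over gene length and over 1 constant per library (100% of genes with at least 10 counts), so it adds no depth. Gene positions match GENCODE release 29 (GRCh38) for 58690 genes. The members and the lists were chosen with earlier results of these data known, and every member is named; of the other pathway genes, those under an adjusted p of 0.05 were to be named, otherwise the 3 with the largest fold change at a mean of at least 100 counts.

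Genes with at least 10 summed counts (19849) went into edgeR 4.0.16 (R 4.3.3, TMM, glmQLFit, glmQLFTest, prior count 0.125, Benjamini-Hochberg over all tested genes), with the libraries labelled knockdown on one side. Each SE given was worked out from this test, as the absolute log2 fold change over the square root of its F statistic. As the control stands alone, the fit had 1 residual degree of freedom, the common dispersion was 0.00719, and the prior degrees of freedom were estimated as infinite, so that every p rests on the spread shared by all genes. The script was tested on simulated data. Alternatives were DESeq2 1.42.0 size factors, library totals alone, filters of 1 and 30 counts, a prior count of 2, the DESeq2 Wald test, leaving out either library labelled knockdown, and, added after the data were seen, offsets that remove the trends with GC content and transcript length in 20 classes of each. Ratios of 2 libraries have exact 95% intervals (SciPy 1.17.1). Intervals and the limit of 3 counts cover counting error only, since reads amplified by PCR and lacking molecular identifiers do not stand for independent molecules. For shared sequence, the 31-base words of each gene's transcripts were looked up in all other genes, and promoter sequences came from RefSeq. Each count column was tied to 1 sample, and 0 columns were left unassigned. Some prostate marker genes are not reported here.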

Additional observations from a re-analysis of the deposited data

How the results depend on the processing

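Under every alternative run, 0 members and 0 other pathway genes passed an adjusted p under 0.05 and 0 members passed the volcano limits, and the median log2 fold change of the members stayed between -0.02 and 0.01; without 1 of the libraries labelled knockdown, where no test is possible, it lay between -0.10 and 0.02. Removing the trends with GC content and transcript length, chosen after the data were seen, turned the direction of 4 members: FZD3 (0.0052), LRP6 (0.062), WNT7B (-0.026) and WNT5B (-0.18). All other tested members kept their direction there, and all did in the other settings that used the 3 libraries, except that WNT4, WNT8B and SFRP4 were not tested with at least 30 counts. With 1 of the libraries labelled knockdown left out, the direction turned for TCF7, WNT5B, WNT9A and SFRP1 (without the first) and for FZD5, FZD4, WNT10B and DKK1 (without the second). Of all genes, 70 were called in the report's setting, 51 with at least 1 count, 17 with at least 30 counts, 6 with DESeq2's Wald test and 25 with the trends removed. No paired analysis was possible because the control has 1 library with no replicate number. At this depth, genes under 100 counts have intervals too wide to show small differences, and no value covers the variation between control cultures.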

Other observations

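Among regulators that are not members, WLS, which carries WNT proteins to the surface, was counted 811 times in the control, 764 times with the label knockdown 1 and 827 times with the label knockdown 2. In the same order, PORCN, which attaches the lipid of WNT proteins, had 170, 186 and 197. The receptor ROR1, which binds WNT5A, had 941, 964 and 691 counts (log2 fold change -0.22, SE 0.14, adjusted p = 0.537, edgeR's quasi-likelihood test), with the lowest count in the library labelled knockdown 2. LGR4, the receptor for R-spondins, had 1444, 1256 and 1593 counts, while LGR6 had 29, 14 and 18. These genes were picked from the lists after their values were seen.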
